A study of Mus musculus with 16 samples.

Results

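The mural trophectoderm is the outer epithelium of the blastocyst on the side of the cavity away from the inner cell mass. Its microRNAs (miRNAs) were compared between mouse blastocysts in diapause and normal blastocysts. Libraries were chosen by their tissue and treatment labels: 3 from mural pieces of diapaused blastocysts and 2 from mural pieces of normal (WT) blastocysts, 5 of the 16 small-RNA libraries of the study. The WT blastocysts were at embryonic day 4.5, and the diapaused blastocysts had been paused in vivo and were taken at EDG 7.5, so that age and diapause cannot be told apart here. A laser was used to cut each blastocyst into a mural piece and a polar piece, which keeps the inner cell mass. Polar pieces of the same 2 kinds of blastocyst (WT, n = 2 libraries, and diapaused, n = 3) and mural pieces after mTOR inhibition (mTORi, n = 3 libraries) are used below for comparison. Strain, the way diapause was brought about, the inhibitor's dose and the number of embryos in a library are not given in the sources. No batch is labelled. How old the mTORi embryos were is likewise unstated, so age and treatment cannot be separated when mTORi is set against WT. The titles alone would not have placed the mural mTORi libraries. Those titles contain "diapaused" and leave out the piece, so tissue and treatment labels were followed. Because nothing ties the libraries to separate litters, p-values measure a spread between libraries that may be technical. That spread was estimated within groups over all 16 libraries, polar pieces after mTOR inhibition included.

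In diapause the blastocyst pauses before it implants and can later resume, and growth and cell division slow in both the trophectoderm and the inner cell mass. A miRNA is a short RNA that guides Argonaute proteins to messenger RNAs. Pairing rests mainly on its seed, bases 2 to 8 from the 5′ end, so that miRNAs with the same seed have overlapping targets. Many miRNAs are cut from clusters of hairpins in a single transcript, and each hairpin can give a 5p and a 3p product.

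The WT libraries held 6435 and 8366 miRNA counts, and the diapaused libraries 12607, 20051 and 14814. Levels are given as CPM, the count scaled to a library of 1000000, and in these 5 libraries 1 count was worth between 61.3 and 156 CPM. Of 1978 listed names, 350 had a count in them, and 102 miRNAs passed the filter on low counts over all 16 libraries and were tested. Markers named for the mural side, the 5 products of miR-322, miR-351 and miR-503, were all detected. They made up 7.47% and 7.06% of counts in the WT and 5.07%, 3.73% and 4.93% in the diapaused libraries, against 0.344% to 0.870% in the polar WT libraries. No count fell on the 5 miR-302/miR-367 markers of the inner cell mass, and at most 3 counts per library fell on 7 miRNAs of the Dlk1-Dio3 cluster. Erythroid, leukocyte, endothelial, liver and muscle markers had at most 10 counts per library each, and neural markers had none. The 4 stromal markers had 3 and 4 counts in WT and 11, 33 and 17 in diapaused libraries (0.0466% and 0.0478% against 0.0873%, 0.165% and 0.115%). Of these, miR-143-3p held all but 1 count, and miR-199a-3p and miR-214-3p were at 0. Of 53 names made from 2 or more hairpins, 2 had more than 6 counts in the 5 libraries. A 0 for a marker of that kind may therefore reflect how reads were counted, and is no evidence that a cell type was absent. The part that the lower mural and higher stromal markers have in the results was not tested. Lists were chosen with earlier results of these data known, so the marker shares are no independent check of which piece was sampled.

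The sequences of the miRNAs on which the results turn show which of them share a seed. They are RefSeq mature sequences (GRCm38.p6), which matched 89 of the 102 tested and 8 of the 10 called miRNAs. Capitals mark the seed. The seed CAGUGCA is that of the miR-148/miR-152 family, in which miR-148a-3p differs from miR-148b-3p at 2 of 22 bases:
miR-148a-3p: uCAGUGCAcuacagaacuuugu
miR-148b-3p: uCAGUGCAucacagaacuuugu
miR-152-3p: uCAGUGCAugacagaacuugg

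The let-7 family shares GAGGUAG. let-7d-5p and let-7g-5p differ at 4 of 22 bases:
let-7d-5p: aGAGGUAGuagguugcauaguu
let-7g-5p: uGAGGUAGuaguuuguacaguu
let-7i-5p: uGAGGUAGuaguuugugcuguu
let-7b-5p: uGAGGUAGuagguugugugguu
let-7e-5p: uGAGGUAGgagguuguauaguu

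The miR-200 family has 2 seeds 1 base apart, AAUACUG and AACACUG:
miR-200c-3p: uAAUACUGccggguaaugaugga
miR-200b-3p: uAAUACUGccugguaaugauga
miR-429-3p: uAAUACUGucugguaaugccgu
miR-141-3p: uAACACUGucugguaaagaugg
miR-200a-3p: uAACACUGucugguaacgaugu

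From the miR-290/miR-295 cluster come 3p products with AAGUGCU and 5p products with CUCAAAC, here with their most abundant examples:
miR-294-3p: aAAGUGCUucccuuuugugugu
miR-295-3p: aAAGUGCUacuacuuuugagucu
miR-291a-3p: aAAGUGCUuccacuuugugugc
miR-292a-5p: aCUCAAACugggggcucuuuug

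Other miRNAs whose values are given in full are listed next, and those of them that share a seed are miR-10a-5p and miR-10b-5p. The pair miR-10a-5p and miR-10b-5p differs at 1 of 23 bases:
miR-25-3p: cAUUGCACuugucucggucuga
miR-23a-3p: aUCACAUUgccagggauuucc
miR-10a-5p: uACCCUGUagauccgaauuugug
miR-10b-5p: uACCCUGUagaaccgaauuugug
miR-322-5p: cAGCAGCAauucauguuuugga
miR-503-5p: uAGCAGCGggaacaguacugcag
miR-672-5p: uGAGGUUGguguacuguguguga
miR-5126: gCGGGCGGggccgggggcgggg
miR-2137: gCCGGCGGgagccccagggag

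Diapaused mural pieces had more miR-148a-3p, miR-30d-5p, miR-30b-5p, let-7d-5p, miR-23a-3p, miR-25-3p, miR-200c-3p and miR-294-3p than WT mural pieces, by 1.51-fold to 7.60-fold. The names miR-5126 and miR-2137 were lower, but not once WT replicate 2 was left out. In all, 10 of 102 tested miRNAs were called at an adjusted p under 0.05 in edgeR's quasi-likelihood test (9.80%), 8 higher (7.84%) and 2 lower (1.96%), and 21 had an unadjusted p under 0.05. Scaling matters for this split. The median log2 difference of the 102 miRNAs was 0.19 with the TMM factors used for every CPM level and log2 difference below unless another scaling is named, and -0.05 with DESeq2's size factors (RLE) or -0.09 with library size alone. With either of those, 3 were called higher (let-7d-5p, miR-148a-3p and miR-30d-5p) and 2 lower, so the share of calls that were higher went from 80% to 60%. The calls also rest on few libraries. Without WT replicate 2 a single call was left, miR-148a-3p (adjusted p = 0.0341), and 0 when the low-count filter was repeated on the remaining libraries. Leaving out WT replicate 1 left 6 calls, and leaving out diapaused replicate 1, 2 or 3 left 4, 5 or 6. The CPM of the 2 groups did not overlap for 33 miRNAs that were higher in diapause (32.4%) and 11 that were lower (10.8%). By share of all counts, without TMM scaling, these were 23 (22.5%) and 26 (25.5%). In bulk pieces such as these, fewer cells of a type and less RNA per cell cannot be told apart.

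**Figure D1:**
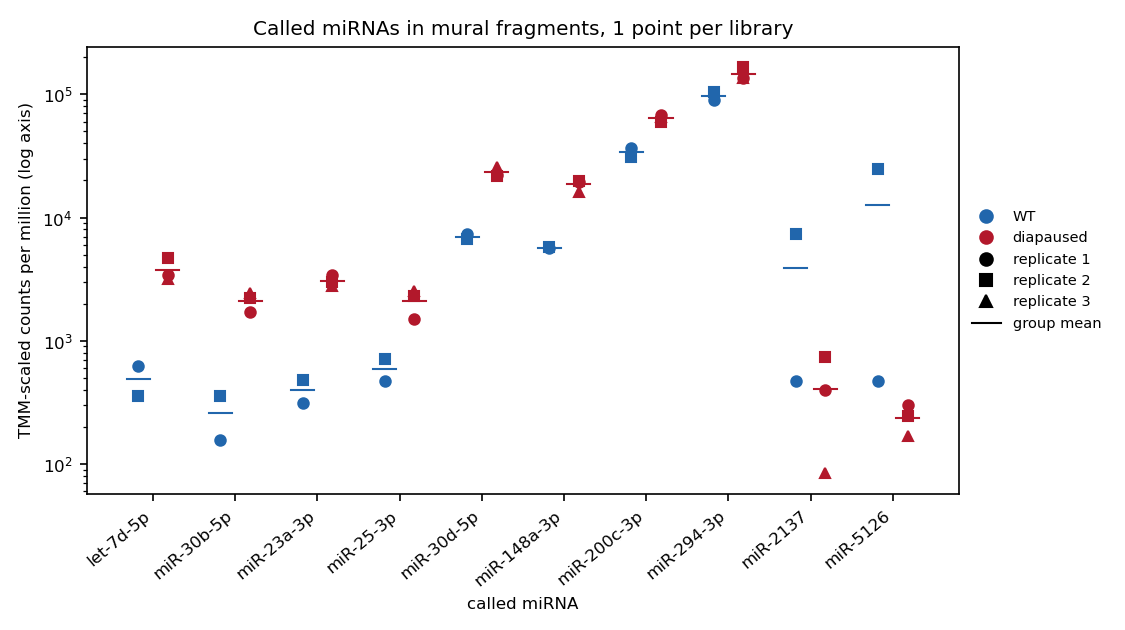
Level of each of the 10 called miRNAs in each mural library, in TMM-scaled CPM on a log axis, with WT libraries in blue, diapaused libraries in red, marker shapes for replicates and short lines for group means. The 8 miRNAs called higher have every diapaused library above both WT libraries, while for miR-5126 and miR-2137 WT replicate 2 alone stands high, at 24755 and 7295 CPM.

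The plot of the 10 called miRNAs by library shows that the 8 higher ones differ in level by orders of magnitude, from miR-30b-5p to miR-294-3p. It also shows where both groups are tight. The most stable call was miR-148a-3p, a miRNA known to target the DNA methyltransferase Dnmt1, with an intergenic hairpin at chr6:51269812-51269910. It stood at 5608 and 5740 CPM in the WT libraries (36 and 48 counts) and at 19585, 19790 and 16257 CPM in the diapaused libraries (195, 323 and 194 counts). All diapaused libraries were far above both WT libraries, and the WT libraries nearly coincided. The difference was 1.71 (SE 0.27) on the log2 scale, 3.26-fold, with an adjusted p of 0.000793, and it was called in 13 of 14 alternative settings. Its seed relatives did not pass the test. miR-148b-3p was at 3116 and 1674 CPM in WT and 2109, 1654 and 1760 CPM in diapause, with overlapping groups (log2 -0.37, SE 0.45). miR-152-3p had 2 counts over the WT and 5 over the diapaused libraries, too few for a direction. The seed CAGUGCA as a whole held 0.819% ± 0.0939 (SD, n = 2) of the WT counts and 1.65% ± 0.159 (SD, n = 3) of the diapaused counts.

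Of the miR-30 family, which is found in most tissues, 5 products were tested, with a median log2 difference of 0.99, and 2 rose, where 7.84% of all tested miRNAs did. miR-30d-5p was at 7322 and 6697 CPM in WT and at 22196, 21567 and 25893 CPM in diapause. The groups lay well apart and each was narrow. It rose by 1.73 (SE 0.35), 3.31-fold, adjusted p 0.00372. miR-30b-5p had 1 and 3 counts in the WT libraries (156 and 359 CPM) and 17, 36 and 29 in the diapaused ones (1707, 2206 and 2430 CPM). Here too every diapaused library was higher, but the WT level rests on 4 counts. Its log2 difference was 2.91 (SE 0.87, adjusted p 0.0381), and only 2 of 14 alternatives called it. The other members had no call. miR-30e-5p overlapped between groups (10749 and 5621 CPM against 7533, 6004 and 4693 CPM). So did miR-30a-5p, at 3739 and 2033 CPM in WT against 2712, 9374 and 4860 CPM in diapause. Its log2 difference of 0.99 (SE 0.74) is the family's median, and it ranged from 0.41 to 1.48 over 14 alternatives. miR-30e-3p differed by -0.21 (SE 0.70).

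Members of the let-7 family repress growth and stem-cell genes, and LIN28 proteins block their maturation in early embryonic cells. Of 5 tested, 1 rose (7.84% over all tested miRNAs), and the family's median log2 difference was 1.34. let-7d-5p had 4 and 3 counts in the WT libraries (623 and 359 CPM) and 34, 76 and 38 in the diapaused libraries (3415, 4656 and 3184 CPM). The groups were far apart. Its rise was 2.93 (SE 0.65), 7.60-fold, adjusted p 0.00819, called in 12 of 14 alternatives. let-7g-5p was at 3271 and 1555 CPM in WT against 6327, 6678 and 5195 CPM in diapause. Its groups did not overlap, but at an adjusted p of 0.0509 (log2 1.34, SE 0.42) it missed the threshold. let-7i-5p (2.07, SE 0.84, adjusted p 0.138) also had all diapaused libraries above WT without a call. let-7b-5p, at 2025 and 3349 CPM against 3515, 10477 and 4106 CPM, was high in diapaused replicate 2 alone. Its log2 difference of 1.16 (SE 0.73) was 0.49 without that library, and by share of all counts its groups overlapped. let-7e-5p went the other way in value, with overlapping groups (-0.43, SE 0.45). All names with the seed GAGGUAG together held 1.20% and 1.03% of the WT counts and 1.43%, 2.23% and 1.57% of the diapaused counts. The hairpin of let-7d lies at chr13:48536012-48536114 in an exon of a long noncoding RNA, beside those of let-7f-1 and let-7a-1. let-7a-5p had no count in the 5 libraries, and let-7f-5p, which comes from 2 hairpins, had 7. Other abundant names made from 2 hairpins were also at or near 0 (let-7c-5p and miR-24-3p at 0, miR-16-5p at 2 and miR-26a-5p at 1 count), whereas miR-92a-3p had 243. How reads that match 2 hairpins were counted is not given in the sources, so family totals may be too low.

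**Figure D2:**
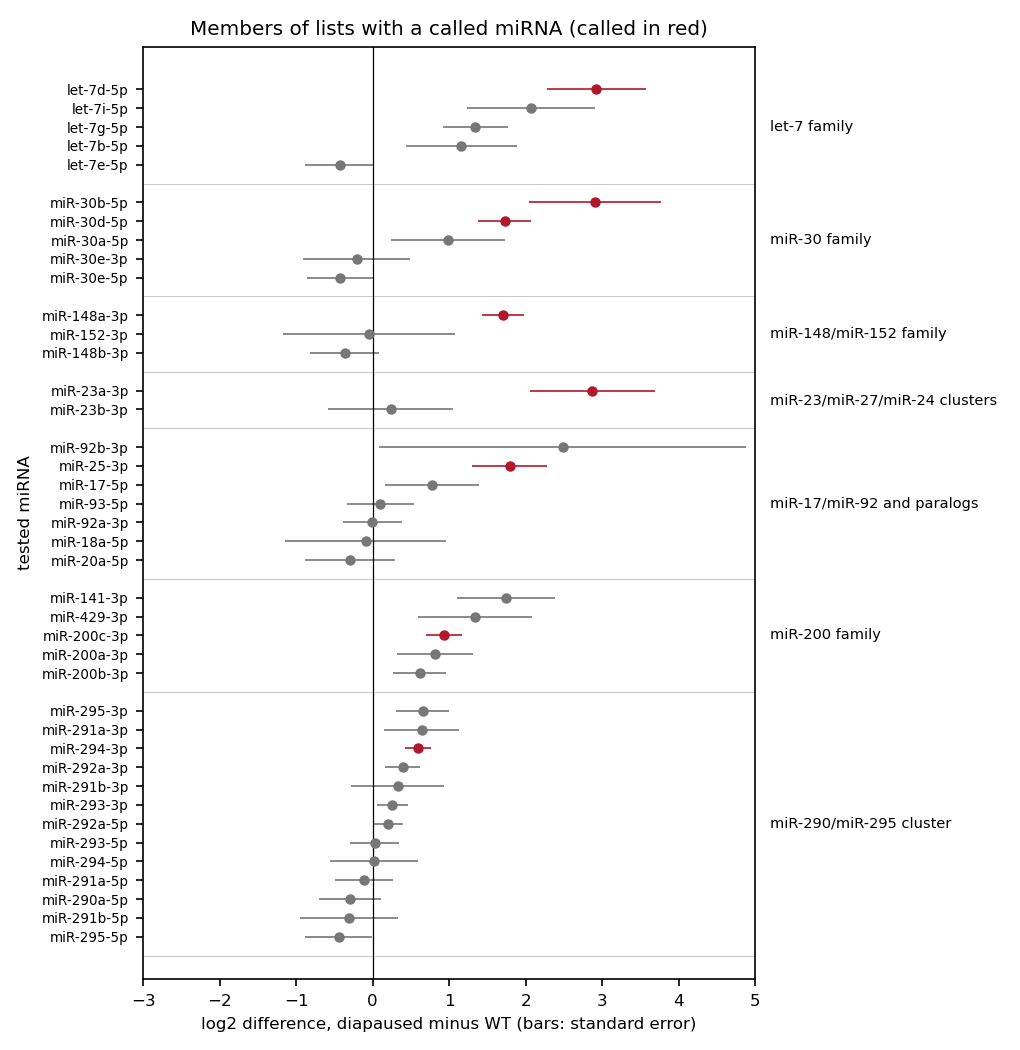
Log2 difference (diapaused minus WT, x axis) of each tested member of the 7 lists with at least 1 called miRNA, with bars for 1 standard error and called miRNAs in red. The 5 miR-200 members all lie right of 0, while members of the let-7, miR-30 and miR-148/miR-152 families stand on both sides of 0.

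The plot of list members sets these families beside the miR-200 family, in which every point lies right of 0. miR-200 miRNAs keep epithelial cells epithelial by repressing Zeb1 and Zeb2, and the trophectoderm is an epithelium. All 5 tested members had a positive log2 difference and no overlap between groups (background 32.4% of miRNAs), with a median of 0.93, but 1 passed the test. By share of all counts, without TMM scaling, miR-200b-3p overlapped (2.28% and 1.71% in WT against 2.18%, 3.02% and 2.19%). miR-200c-3p stood at 36921 and 30735 CPM in WT and at 68496, 59309 and 65781 CPM in diapause. Diapaused libraries were about as tight as the WT pair and all above it. It rose by 0.93 (SE 0.24), 1.91-fold, adjusted p 0.0248, but was called in 7 of 14 alternatives and not with RLE factors (adjusted p = 0.0779) or library size (0.180). The hairpin is at chr6:124718322-124718390, within an intron of the antisense gene Gm15884 and 337 bases from that of miR-141. miR-141-3p had 1 and 10 counts in WT and 25, 45 and 24 in diapause (log2 1.75, SE 0.64, adjusted p 0.0887). It lay above WT in each diapaused library, with a wide spread in WT. On the other miR-200 locus, miR-200b-3p (0.62, SE 0.35), miR-200a-3p (0.81, SE 0.50) and miR-429-3p (1.34, SE 0.74) were not called. The family's share of all counts was 7.09% and 5.96% in WT and 8.96%, 10.3% and 9.09% in diapause.

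The miR-290/miR-295 cluster, on chromosome 7, dominates the miRNAs of mouse embryonic stem cells, where its AAGUGCU members speed the passage from G1 to S phase. It held about the same share of counts in both groups, 50.6% ± 0.574 (SD, n = 2) in WT and 49.8% ± 1.10 (SD, n = 3) in diapause. Of 13 tested products 1 rose, a share near the 7.84% of all tested miRNAs, and their median log2 difference was 0.21, against 0.19 over all tested miRNAs. miR-294-3p (hairpin at chr7:3220641-3220724, intergenic) was at 89887 and 103566 CPM in WT and at 136590, 165488 and 136590 CPM in diapause. The groups did not overlap. Its rise of 0.60 (SE 0.17), 1.51-fold, had an adjusted p of 0.0319, but 1 of 14 alternatives called it, and with RLE factors it was 0.34 (adjusted p = 0.281). The most abundant miRNA of these libraries, miR-292a-5p, was at 233363 and 232245 CPM in WT and 293468, 246425 and 265638 CPM in diapause. Its log2 difference was 0.21 (SE 0.19) with TMM and -0.06 with RLE factors, so no direction holds across scalings.

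The 5p share of the cluster's counts does not depend on scaling, but both arm use and the mix of hairpins can move it. In the WT libraries, 5p products made up 58.9% (95% Wilson interval 57.2% to 60.6%) and 56.8% (55.3% to 58.3%) of the cluster's counts. In the diapaused libraries they made up 54.4% (53.2% to 55.7%), 49.2% (48.2% to 50.1%) and 52.7% (51.5% to 53.8%). Every diapaused library was below both WT libraries. The intervals cover counting error only, and with 2 against 3 libraries an exact permutation test cannot reach 0.05, so none was run. By seed, CUCAAAC went from 26.8% and 26.0% of all counts to 25.5%, 22.6% and 23.6%, and AAGUGCU from 10.4% and 11.8% to 12.6%, 15.4% and 12.8%. Single hairpins did not all follow: every diapaused library was below both WT libraries for miR-295 and miR-291a, whereas the groups overlapped for miR-290a, miR-291b, miR-292a, miR-293 and miR-294. The 5p share of miR-295 was 34.5% and 26.3% in WT and 16.7%, 13.8% and 20.5% in diapause. For miR-291a it was 85.6% and 85.5% against 79.4%, 75.0% and 78.8%. For the abundant miR-292a it was 82.4% and 84.0% against 80.8%, 82.8% and 80.4%. The same share over the whole cluster was 58.7% and 56.1% in polar WT, 54.1%, 52.5% and 50.2% in polar diapaused, and 50.4%, 47.2% and 47.9% in mural mTORi libraries. In polar pieces the same hairpins did not show the cluster's lower share. For miR-295 the 5p share was 15.8% and 16.3% in WT against 21.2%, 22.4% and 16.8% in diapause. Its WT values have 95% Wilson intervals of 5.52% to 37.6% and 10.1% to 25.2%, which hold all 3 diapaused values, so no direction can be read. miR-291a overlapped (70.6% and 80.4% against 78.5%, 89.1% and 74.4%).

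**Figure D3:**
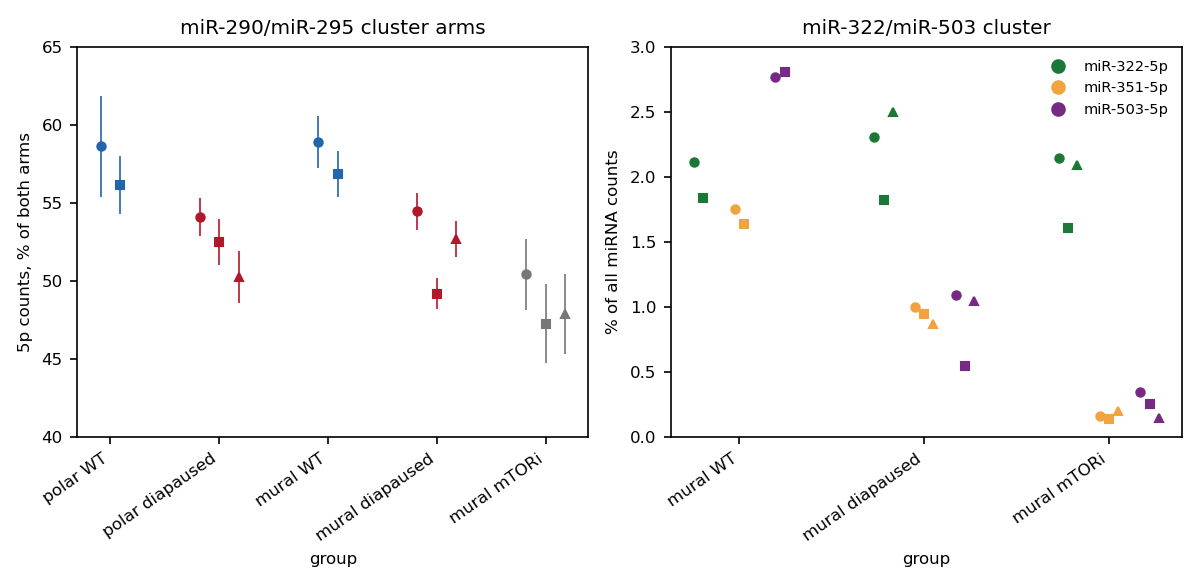
Left, 5p counts as a percentage of all counts of the miR-290/miR-295 cluster in each library of 5 groups, with 95% Wilson intervals for counting error (y axis from 40 to 65). Right, miR-322-5p, miR-351-5p and miR-503-5p as a percentage of all miRNA counts in the mural libraries. Marker shapes are replicates, the 5p share lies lower in every diapaused mural library than in both WT ones, and miR-503-5p is at 2.77% and 2.81% of counts in WT and between 0.544% and 1.09% in diapause, while miR-322-5p overlaps.

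The X-linked miR-322/miR-503 cluster, whose miRNAs repress cyclins and other cell-cycle genes, marks the mural side. The plot of its members as shares of all counts shows different patterns for its 3 main products. miR-503-5p was at 27729 and 28104 CPM in WT and at 13760, 6678 and 12989 CPM in diapause. Both WT libraries were above every diapaused library, but the log2 difference of -1.33 (SE 0.67) had an adjusted p of 0.285, and 1 of 14 alternatives called it. miR-322-5p, from the neighbouring hairpin, was at 21186 and 18417 CPM in WT and 29226, 22425 and 31005 CPM in diapause (0.48, SE 0.45). The ratio of miR-322-5p to miR-503-5p counts, which does not depend on scaling, was 0.764 and 0.655 in WT and 2.12, 3.36 and 2.39 in diapause. It was 6.27, 6.44 and 14.6 in the mural mTORi libraries. In polar pieces the ratio was 1.0 and 0.714 in WT and 1.05, 2.85 and 1.55 in diapause, also without overlap. The polar WT ratios rest on few counts, 2 against 2 and 10 against 14. miR-351-5p differed by -0.54 (SE 0.47) in diapause. None of the cluster's 5 tested products was called.

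In the miR-17/miR-92 family and its paralogs, 1 of 7 tested miRNAs rose, against 7.84% of all tested, and the median log2 difference was 0.10. miR-25-3p, which has the seed of miR-92a-3p, was at 467 and 718 CPM in WT (3 and 6 counts) and at 1507, 2328 and 2514 CPM in diapause (15, 38 and 30 counts). The groups did not overlap. Its rise of 1.79 (SE 0.49), 3.46-fold, adjusted p 0.0319, was called in 2 of 14 alternatives. Its hairpin is at chr5:138165321-138165404 within Mcm7, a gene for a subunit of the replicative helicase, 119 bases from that of miR-93. miR-93-5p from that neighbour was at 2025 and 3229 CPM against 2511, 3125 and 2849 CPM, with overlapping groups (0.10, SE 0.44). miR-92a-3p was level, at 4674 and 4664 CPM against 4921, 3860 and 5195 CPM. Of the remaining members, miR-17-5p differed by 0.78 (SE 0.61), miR-20a-5p by -0.30 (SE 0.59) and miR-18a-5p by -0.09 (SE 1.06), and miR-92b-3p had no count in 3 of the 5 libraries.

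Of the miR-23/miR-27/miR-24 clusters, found in many adult tissues including vessels and blood, 2 miRNAs were tested and 1 rose, against 7.84% of all tested. miR-23a-3p (hairpin at chr8:84208518-84208592, intergenic) had 2 and 4 counts in WT (312 and 478 CPM) and 34, 49 and 33 in diapause (3415, 3002 and 2765 CPM). The WT level rests on 6 counts, and all diapaused libraries lay far above it. The log2 difference was 2.87 (SE 0.82), 7.32-fold, adjusted p 0.0319, called in 4 of 14 alternatives. The next hairpin of the same cluster, miR-27a, had its 3p product at 0 and 0 counts in WT and 3, 7 and 7 in diapause, and was too low to be tested. miR-23b-3p, from another locus, overlapped between groups (0.24, SE 0.82).

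The miR-10 family lies in the Hox clusters. Neither member passed the test, though in both every diapaused library was above WT, as in 32.4% of all tested miRNAs. miR-10b-5p (chr2:74726070-74726137, within introns of Hoxd3 and Hoxd4) was at 44554 and 33485 CPM in WT and at 91395, 68560 and 91088 CPM in diapause. It differed by 1.10 (SE 0.38, adjusted p 0.0740), 2.14-fold. For miR-10a-5p, a single library was high: 2337 and 1555 CPM in WT against 3816, 18748 and 3268 CPM in diapause. The log2 difference of 2.16 (SE 0.69, adjusted p 0.0524) was 0.87 without diapaused replicate 2. Together the seed ACCCUGU took 4.68% and 3.50% of WT and 7.52%, 7.11% and 7.60% of diapaused counts.

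On the lower side, the calls did not hold without WT replicate 2. miR-5126 had 3 and 207 counts in the WT libraries (467 and 24755 CPM) and 3, 4 and 2 in the diapaused libraries (301, 245 and 168 CPM). WT replicate 1 was thus close to the diapaused libraries. The fitted log2 difference was -5.65 (SE 1.05, adjusted p 0.00253), and -0.93 (adjusted p = 0.789) without WT replicate 2. miR-2137 had 3 and 61 counts against 4, 12 and 1, with overlapping groups, and -3.17 (SE 0.91, adjusted p 0.0319) became -0.13 (adjusted p = 0.975) without that library. In polar pieces miR-5126 was at 5709 and 14413 CPM in WT and 1199, 1417 and 1795 CPM in diapause (-2.81, SE 0.91, adjusted p 0.0662). miR-2137 was there at 2595 and 17707 CPM against 1732, 2329 and 1512 CPM (-2.52, SE 0.83, adjusted p 0.0662). Both were thus lower in polar diapause as well, without a call. These names have no arm and are the 2 tested sequences richest in G and C, at 100% and 85.7% against a median of 45.5% over 89 sequences. The uncalled miRNA with the smallest p on the lower side was miR-672-5p, from an intron of Nexmif on the X chromosome. It was at 3739 and 5262 CPM in WT and 502, 1899 and 1760 CPM in diapause, so that both WT libraries were above all diapaused ones (-1.66, SE 0.56, adjusted p 0.0653).

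**Figure D4:**
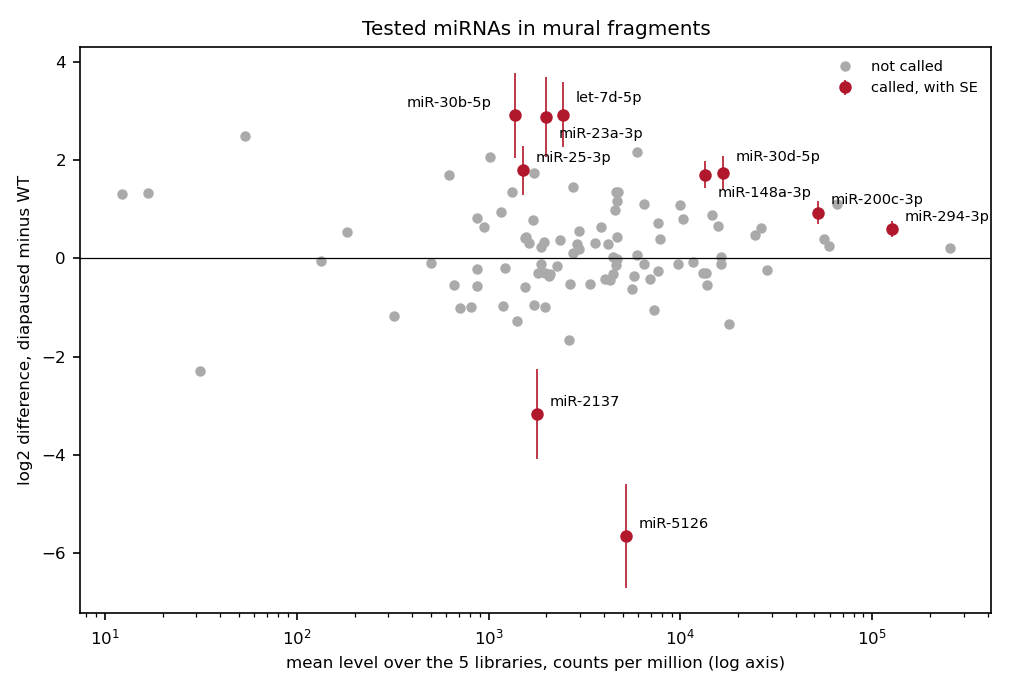
Log2 difference (diapaused minus WT, y axis) against the mean level over the 5 mural libraries in CPM (log x axis) for the tested miRNAs, called ones in red with bars of 1 standard error. miR-379-5p, with no count in these libraries, is not drawn. The smallest called difference, 0.60 for miR-294-3p, is at the highest level of the called miRNAs, and let-7d-5p, miR-23a-3p and miR-30b-5p, at lower levels, have wider bars.

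The plot of difference against level shows what these totals allow. At the level of miR-294-3p a 1.51-fold rise was called, and the calls of miR-23a-3p, miR-30b-5p and let-7d-5p at far lower levels came with rises of 7.32-fold to 7.60-fold. Other uncalled miRNAs without overlap and with the smallest p were miR-26b-5p (1.08, SE 0.39), miR-328-3p (1.45, SE 0.53), miR-101a-3p (1.11, SE 0.46) and miR-378a-3p (0.89, SE 0.41), with adjusted p from 0.0862 to 0.221. Of the most abundant miRNAs, miR-182-5p (-0.23, SE 0.30), miR-293-3p (0.26, SE 0.20) and miR-292a-3p (0.39, SE 0.23) had no call. Of 19 lists of clusters and families with a tested member, 7 had a call. Lists without one included the miR-183/miR-96/miR-182 cluster of epithelial and sensory cells, at 4.90% and 3.96% of WT and 3.26%, 3.03% and 3.06% of diapaused counts, with a median log2 difference of -0.15 over 2 tested. The miR-743/miR-881 cluster of the X chromosome had 7 tested members, a median of 0.30 and overlapping shares, 2.11% and 4.04% against 2.53%, 1.98% and 3.71%.

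Diapaused and WT polar pieces share no library with the mural ones, so the difference between the 2 effects could be tested. Mural and polar pieces may come from the same embryos, which the labels do not say, and the fit treats their libraries as independent. In the polar comparison 8 of 102 were called (7.84%). The polar WT libraries held 1744 and 4940 counts, so that 1 count was worth 519 and 206 CPM in them. No miRNA was called in the test of mural against polar effect (0%), with 12 at an unadjusted p under 0.05 and 0 called by DESeq2. miR-148a-3p was at 15570 and 13589 CPM in polar WT and 26910, 25919 and 29194 CPM in polar diapaused libraries, a rise of 0.91 (SE 0.26, adjusted p 0.0379). Its polar groups did not overlap, and the mural effect was larger by 0.79 (SE 0.37, adjusted p 0.377). miR-30d-5p rose in both, with polar levels of 4152 and 5353 CPM against 14588, 13972 and 11715 CPM (1.47, SE 0.37, adjusted p 0.0187). miR-200c-3p also rose in both, by 1.26 (SE 0.25, adjusted p 0.0065) in polar pieces. miR-200b-3p was called in polar pieces only, at 1.39 (SE 0.38, adjusted p 0.0311). miR-200a-3p (1.74), miR-429-3p (1.71) and miR-141-3p (1.96) were above 0 there without a call. The last 2 had no count in polar WT replicate 1. For every tested miR-200 member the polar value exceeded the mural one, and no gap between them was called. let-7d-5p differed in polar pieces by 2.24 (SE 0.68, adjusted p 0.0511), with 0 and 6 counts in WT and 58, 34 and 46 in diapause.

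**Figure D5:**
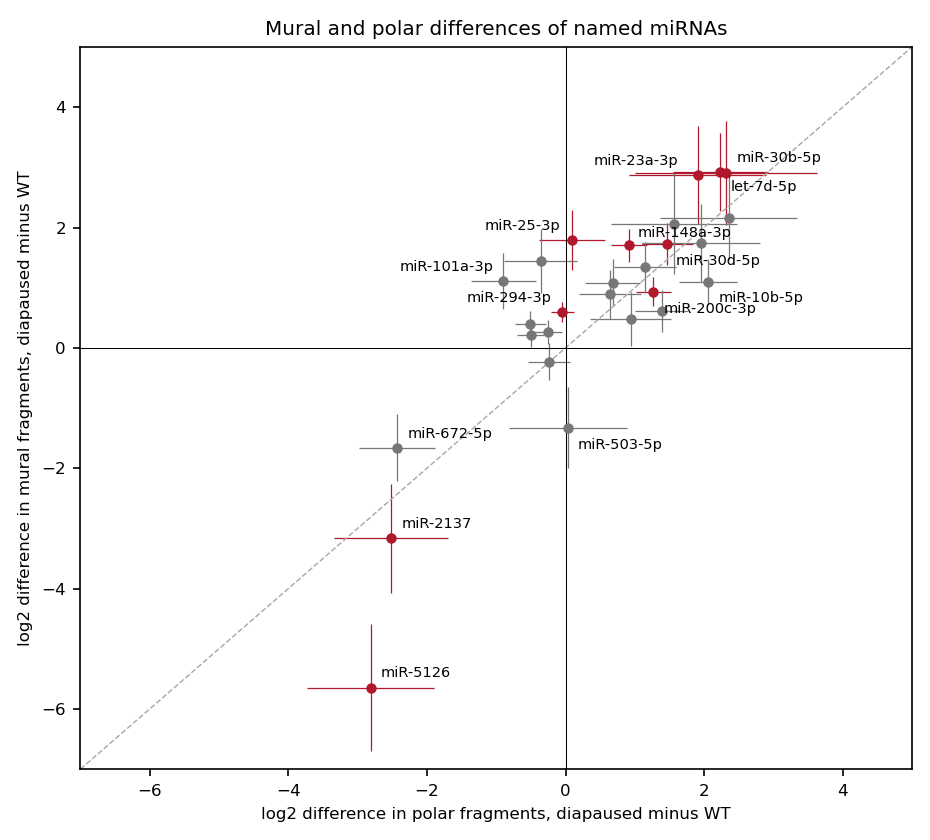
Log2 difference in mural (y axis) against polar pieces (x axis), diapaused minus WT, for 27 named miRNAs, with bars of 1 standard error, miRNAs called in the mural comparison in red, and a dashed line of equal values. miR-25-3p and miR-294-3p lie near 0 on the polar axis and above 0 on the mural axis, and miR-672-5p lies below 0 on both.

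In the plot of mural against polar differences, miR-25-3p and miR-294-3p were the 2 higher calls with polar differences close to 0. miR-25-3p was at 2076 and 1853 CPM in polar WT and 2465, 2025 and 1701 CPM in polar diapaused libraries. Polar groups overlapped, and the polar difference was 0.10 (SE 0.48); the mural effect exceeded it by 1.70 (SE 0.69, unadjusted p 0.0244, adjusted p 0.352). For miR-294-3p the polar difference was -0.05 (SE 0.17) and the gap 0.64 (SE 0.23, adjusted p 0.352). The smallest p of this test belonged to miR-101a-3p, 1.11 in mural and -0.90 in polar pieces, with a gap of 2.01 (SE 0.66, adjusted p 0.352). miR-152-3p, too low for a direction in mural pieces, rose in polar ones by 4.10 (SE 1.05, adjusted p 0.0238). It had 0 and 1 counts in polar WT and 24, 33 and 36 in polar diapaused libraries, so the size of that rise is uncertain. miR-10b-5p rose in polar pieces (2.05, SE 0.42, adjusted p 0.0065), and miR-672-5p fell in them (-2.43, SE 0.55, adjusted p 0.0088).

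Mural mTORi libraries were compared with the same WT libraries, so their values are set beside those of diapause only. miR-148a-3p was at 22436, 19216 and 27619 CPM in mTORi, 2.02 (SE 0.28, adjusted p 0.0001) above WT, against 1.71 for diapause. miR-23a-3p was 2.85 above WT (SE 0.85, adjusted p 0.0329) and miR-30d-5p 1.59 above it (SE 0.35, adjusted p 0.0048). miR-200c-3p was not called (0.62, SE 0.24, adjusted p 0.0913), nor was let-7d-5p (1.89, SE 0.70, adjusted p 0.0894). miR-503-5p and miR-351-5p were lower by 3.41 and 3.26 on the log2 scale in mTORi, both called, against 1.33 and 0.54 in diapause without a call. miR-10b-5p reached 161350, 160312 and 182157 CPM in mTORi. Its mTORi difference was 2.11 (SE 0.40, adjusted p 0.0015). In all, 12 of 102 were called there (11.8%).

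Most names with a count were too low to be tested. Of 249 names with a count that were not tested, 12 were counted in all 3 diapaused and in no WT library. Another 3 were counted in both WT and in no diapaused library. The diapaused libraries held 47472 counts in all and the WT libraries 14801, so these numbers cannot be compared directly. The names that follow were chosen after their values were seen, and their ratios are of shares of all counts, without TMM scaling. miR-135b-5p had 0 and 0 counts in WT and 12, 28 and 7 in diapause. Against a floor set at 3 counts over the WT group the ratio was 4.88, which is not a bound. The exact lower 95% limit for counting error was 3.82. miR-215-5p, a relative of the epithelial miR-192, had 0 and 2 counts in WT and 6, 15 and 21 in diapause, a ratio of 6.55 with an exact 95% interval of 1.70 to 55.8 for counting error. miR-34a-5p, whose gene p53 activates, had 3 and 1 counts against 19, 7 and 15, a ratio of 3.20 (1.16 to 12.3). The stromal marker miR-143-3p gave a ratio of 3.17 (1.38 to 8.97).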

How the data were processed

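Small-RNA libraries were made with adapters carrying unique molecular identifiers and sequenced at 75 nt, per the labels' protocols. The deposited values are counts per mature miRNA name, raw and unnormalized, from the authors. The submitters' processing notes name GRCm38; aligner, counting tool and identifier collapsing are not given in the sources. Hairpin positions are from RefSeq (GRCm38.p6), and host genes are from GENCODE M21 (GRCm38).

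Counts were fitted in edgeR 4.0.16 (R 4.3.3): filterByExpr (minimum count 10, total 15), TMM factors, 1 mean per group over 16 libraries, quasi-likelihood test, two-sided, Benjamini-Hochberg over 102 miRNAs, threshold 0.05. SE is the absolute log2 difference divided by the root of F. CPM are tested counts scaled to 1000000 with TMM. The fit was tested on simulated data. Alternatives included DESeq2 1.42.0, other scalings and left-out libraries. Named miRNAs were every called one, the 10 most abundant, the 10 uncalled with the smallest p, no overlap and at least 10 CPM, and every tested member of a list with a call. Members and lists (22) were chosen with earlier results of these data known. Intervals and floors cover counting error only.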

Additional observations from a re-analysis of the deposited data

How the results depend on the processing

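The count of calls was 10 as reported, 5 with RLE factors, 5 with library size alone, 4 with names without an arm left out before scaling, and 6 with miR-5126 and miR-2137 left out, a setting chosen after seeing the data. It ranged from 0 to 6 over left-out libraries, with 1 call without WT replicate 2 and 0 without WT replicate 2 with the low-count filter repeated, also chosen after seeing the data (10 at an unadjusted p under 0.05, and miR-148a-3p at 1.65, adjusted p = 0.105). DESeq2 gave 7 calls, no filter 8 and only the groups compared 9. With the replicate number as a replicate block there were 14 calls, 10 of them shared with the reported ones. Mural WT and diapaused libraries share only 2 numbers, and their deviations correlated at -0.03 and 0.06. The deviations of 2 WT libraries mirror each other, so these values cannot show whether equal numbers mean a pairing. The test of mural against polar effect ranged from 0 to 1 call over left-out libraries, the 1 being miR-351-5p, lower, without polar WT replicate 2, where the remaining polar WT library has no count of it, and gave 0 in every other setting run.

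Signs changed only for uncalled miRNAs. With RLE factors, miR-293-3p was -0.0060, miR-292a-5p was -0.061, miR-293-5p was -0.24, miR-294-5p was -0.25, miR-93-5p was -0.15, miR-23b-3p was -0.037. With library size alone, miR-293-3p was -0.056, miR-292a-5p was -0.11, miR-293-5p was -0.29, miR-294-5p was -0.30, miR-93-5p was -0.21, miR-23b-3p was -0.073. With DESeq2, miR-293-3p was -0.0047, miR-292a-5p was -0.061, miR-293-5p was -0.24, miR-294-5p was -0.25, miR-93-5p was -0.16, miR-23b-3p was -0.057. Without a filter, miR-293-5p was -0.089, miR-294-5p was -0.11, miR-93-5p was -0.032. Without names lacking an arm, miR-293-5p was -0.16, miR-294-5p was -0.18, miR-93-5p was -0.10. With only the groups compared, miR-293-5p was -0.12, miR-294-5p was -0.15, miR-93-5p was -0.064. With the replicate block, miR-291a-5p was 0.066, miR-23b-3p was -0.18. Without miR-5126 and miR-2137, miR-294-5p was -0.00052. Over left-out libraries, the added setting included, the log2 difference ranged for miR-148b-3p from -0.83 to 0.13, for miR-152-3p from -0.34 to 0.11, for miR-18a-5p from -0.52 to 0.64, for miR-20a-5p from -0.59 to 0.095, for miR-23b-3p from -0.30 to 0.87, for miR-291a-5p from -0.37 to 0.092, for miR-291b-3p from -0.067 to 0.49, for miR-292a-5p from -0.00057 to 0.26, for miR-293-5p from -0.23 to 0.24, for miR-294-5p from -0.52 to 0.26, for miR-30e-5p from -0.90 to 0.11, for miR-92a-3p from -0.24 to 0.12, for miR-93-5p from -0.19 to 0.48. The cause was not tested.

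At this depth a missing call is not evidence of no change. WT levels of let-7d-5p, miR-23a-3p, miR-25-3p and miR-30b-5p rest on 1 to 6 counts per library, and 1 count in the WT libraries is worth 120 or 156 CPM. Age and diapause cannot be told apart, and whether identifiers were collapsed is not known.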
